A study of Mus musculus with 36 samples.

Results

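The embryonic stem cell lines X14 and X18 were compared over days 1 to 8 of differentiation, gene by gene on the autosomes. Both are female C57/Bl6 Xmas mESC lines, in which Hprt carries a GFP reporter on 1 of the X chromosomes and mCherry on the other. Both were expanded in 2i medium, which holds mouse embryonic stem cells in the naive state, and then weaned into DME HiHi serum medium. A library was made from each culture on every day. Of the 36 RNA-seq libraries of the series, the 32 of days 1 to 8 entered the comparison, 16 from each line, and the 4 of day 0 were kept apart. Each line was grown under the labels double and single. The labels do not define these words, which serve here as names only. Each X14 library was paired with the X18 library of the same day and label, giving 16 pairs. Each group is 1 line in 2 labelled cultures, so the p-values below measure the spread over days and labels of these 2 lines and do not reach other lines. An exact permutation of the 4 cultures, 2 against 2, cannot go below a two-sided p of 0.333.

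Lines derived from one inbred strain share their genome apart from substrain origin and from changes acquired in the mice or in culture. Mouse embryonic stem cell lines are known to differ in imprinted genes, in whole chromosomes gained in culture and in how readily they leave the naive state. Genes of each kind were therefore listed and described below. A difference in a bulk library may come from fewer cells that express a gene or from less RNA per cell, which cannot be told apart.

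The reads assigned to genes ranged from 612740 to 2335736 per library in X14 (median 1322562.5) and from 730127 to 2445826 in X18 (median 1251914). X14 was the deeper library in 9 pairs and X18 in 7, and depth did not differ between lines beyond the spread of pairs (mean log2 ratio 0.14, two-sided exact sign-flip permutation test over 16 pairs, p = 0.515). Expression is given in RPM, reads per 1000000 reads of the library, and a difference in log2 units is X14 minus X18 of the deposited values. Tests in limma took the 10817 genes that averaged 5 RPM or more in the 32 libraries, of which 10411 are autosomal. To be called, a gene needed a difference of at least 1, a 2-fold change, and a p under 0.05 after adjustment over the 10817 genes. Embryonic stem cell markers were present in both lines. Pou5f1, the core pluripotency factor, had a median of 997 RPM in X14 and 1066 RPM in X18, and Nanog of 282 and 306 RPM. The blood marker Ptprc, the embryonic globin Hbb-y and the fibroblast gene Lum had no read in any of the 32 libraries. Other such markers were present, with Col1a2 up to 52.5 RPM, Thy1 up to 42.8 RPM and Pecam1, which embryonic stem cells also express, up to 155 RPM, and 8 fibroblast markers summed to 4.19 to 79.7 RPM in X14 and 2.00 to 41.8 RPM in X18. Their part in the results was not tested. Hprt, the X-linked locus of the reporters, had a median of 74.6 RPM in X14 and 68.6 RPM in X18 with overlapping ranges (log2 difference -0.02, SE 0.07). These medians pool the labels. The mean of Hprt was 103 RPM under double and 53.1 RPM under single in X14, and 99.3 and 56.6 RPM in X18.

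Wdfy1 was the only autosomal gene called. It encodes a protein with WD repeats and a FYVE domain that sits on early endosomes and takes part in Toll-like receptor signalling. The gene lies on chromosome 1, from 79702262 to 79776143 on the minus strand (mm10). In the X14 cultures labelled double, Wdfy1 stood at 26.8, 29.7, 20.7, 22.9, 46.8, 29.4, 36.5 and 30.6 RPM on days 1 to 8. In those labelled single it stood at 24.1, 28.8, 21.2, 27.2, 49.4, 19.7, 29.2 and 30.1 RPM. The X18 cultures labelled double had 7.98, 10.5, 6.34, 3.38, 9.99, 4.84, 9.43 and 6.96 RPM, and those labelled single 4.31, 7.95, 2.44, 5.61, 7.30, 6.20, 6.45 and 7.14 RPM. All 16 X14 values lay above all 16 X18 values, and day 5 held the highest X14 value under both labels. The mean was 29.6 ± 8.46 RPM in X14 and 6.68 ± 2.26 RPM in X18 (SD, n = 16 each), resting on 16 to 79 reads per library in X14 and 4 to 21 in X18.

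The log2 difference of Wdfy1 was 2.19 (SE 0.14, adjusted p = 4.1e-09, limma), a 4.56-fold difference with a 95% interval of 3.73 to 5.59. It was higher in X14 in 16 of 16 pairs, by 2.82-fold to 8.70-fold. Wdfy1 made up 0.00961% of the autosomal genes tested, which is the share of calls in the whole comparison, and it was also the only gene of the 10411 whose X14 and X18 libraries did not overlap. The difference was 2.08 in pairs labelled double and 2.30 in pairs labelled single, and 2.18 on days 1 to 4 and 2.20 on days 5 to 8. Neither the label nor the day changed it detectably (difference between labels -0.22, unadjusted p = 0.436; change from day 1 to day 8 0.09, unadjusted p = 0.844, limma). In the exact permutation over the 4 cultures Wdfy1 reached the smallest p that 2 against 2 allows, 0.333.

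**Figure D1:**
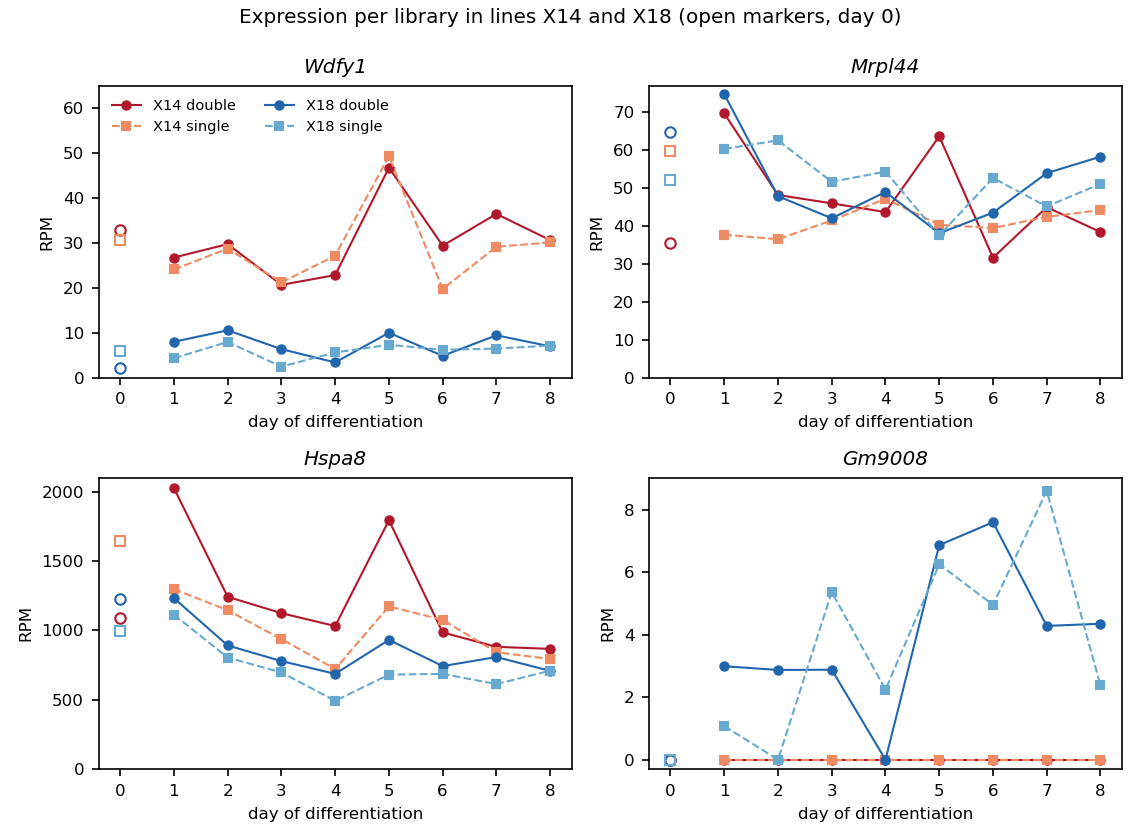
Expression in RPM (y axis, starting near 0) of Wdfy1, its neighbour Mrpl44, Hspa8 and Gm9008 on each day (x axis) in the 4 cultures. Filled markers joined by lines are days 1 to 8 and open markers are day 0. The Wdfy1 values of X14 lie between 19.7 and 49.4 RPM, above all X18 values, while those of Mrpl44 overlap, and Gm9008, a retrogene below the filter on low values, is at 0 in X14.

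The genes around Wdfy1 did not share its difference. Within 1000000 bases on either side 6 other genes were tested, and their log2 differences ranged from -0.23 to 0.11. Mrpl44, a mitochondrial ribosomal protein, starts at 79776018 on the opposite strand, inside the 5′ end of the annotated Wdfy1 gene. Whether reads were counted by strand is not given in the sources used here, so reads in that overlap could belong to either gene. Mrpl44 ranged from 31.7 to 69.7 RPM in X14 and from 37.5 to 74.8 RPM in X18, with a log2 difference of -0.21 (SE 0.09, adjusted p = 0.345, limma). On the same side of Wdfy1, Serpine2, a secreted protease inhibitor, differed by 0.02 (SE 0.10), and Cul3, the scaffold of a ubiquitin ligase, by 0.10 (SE 0.08). On the other side Ap1s3, a subunit of a clathrin adaptor complex, differed by 0.11 (SE 0.20).

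Hspa8, named after its values were seen, was the second gene with an adjusted p under 0.05, and its difference was under 2-fold. It encodes the constitutive HSP70 chaperone, which folds new proteins and uncoats clathrin vesicles, and lies on chromosome 9 from 40800984 to 40805200 on the plus strand. X14 libraries ranged from 722 to 2026 RPM (median 1054) and X18 libraries from 492 to 1233 RPM (median 727). The ranges of the lines overlapped, with the highest value of each line on day 1 under double, but X14 was higher in 16 of 16 pairs. The log2 difference was 0.49 (SE 0.06, adjusted p = 7.6e-04, limma), which is 1.40-fold with a 95% interval of 1.28 to 1.54, and single pairs differed by 1.09-fold to 1.93-fold. Together Wdfy1 and Hspa8 made up 0.0192% of the autosomal genes. Of the heat shock genes in the stress list, Hspb1, a small heat shock protein, differed by -0.10 (SE 0.07) and Dnajb1, a co-chaperone of HSP70, by 0.00 (SE 0.07).

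Across the other autosomal genes the lines were close. The log2 differences had an SD of 0.21, a median of 0.00 and a median SE of 0.13, and no gene besides Wdfy1 reached 1 in either direction. For 97.7% of the genes the 95% interval lay within ±1, so a 2-fold difference lay outside the interval of those genes. No autosomal gene was called lower in X14 by limma, while 914 were lower at an unadjusted p under 0.05 (8.78%) and 492 higher (4.73%). The next adjusted p after Hspa8 was 0.272. Only Wdfy1 and Hspa8 had one sign in all 16 pairs, which is 0.0192% of the genes, and 0.154% had one sign in at least 15.

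Of the 14 genes with one sign in 15 of 16 pairs, 4 were higher in X14 and 10 lower, and none of them was called. The signs are those of the deposited values, in which a gene without reads stands at 0.9 read. Where neither library of a pair has reads, the shallower one therefore stands higher. This set is named after its values were seen. Nr5a2, a nuclear receptor of the naive state, had a median of 4.86 RPM in X14 and 1.28 RPM in X18 (log2 difference 0.88, SE 0.25, adjusted p = 0.309, limma). It was above 30 RPM in both lines on days 1 to 3 and under 10 RPM from day 4. Under single on days 5, 6 and 7 Nr5a2 had 0 reads in X14, against 1, 1 and 0 in X18. These pairs counted as higher in X14 only through the 0.9 read and the depth. Lif, a cytokine that sustains naive cells, ranged from 0.65 to 36.3 RPM in X14 and from 0 to 22.6 RPM in X18 (0.72, SE 0.21, adjusted p = 0.309). Nckap5l, a microtubule-binding protein, differed by 0.77 (SE 0.20, adjusted p = 0.309). Its pair of day 5 under double, with 0 reads in X14 and 1 in X18, counted as higher in X14 in the same way. The lower genes differed by -0.20 to -0.60 and included Capns1, the small subunit of calpains (-0.24, SE 0.06), Myl12b, a myosin light chain (-0.30, SE 0.08), and Got1, a cytosolic transaminase (-0.20, SE 0.06).

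**Figure D2:**
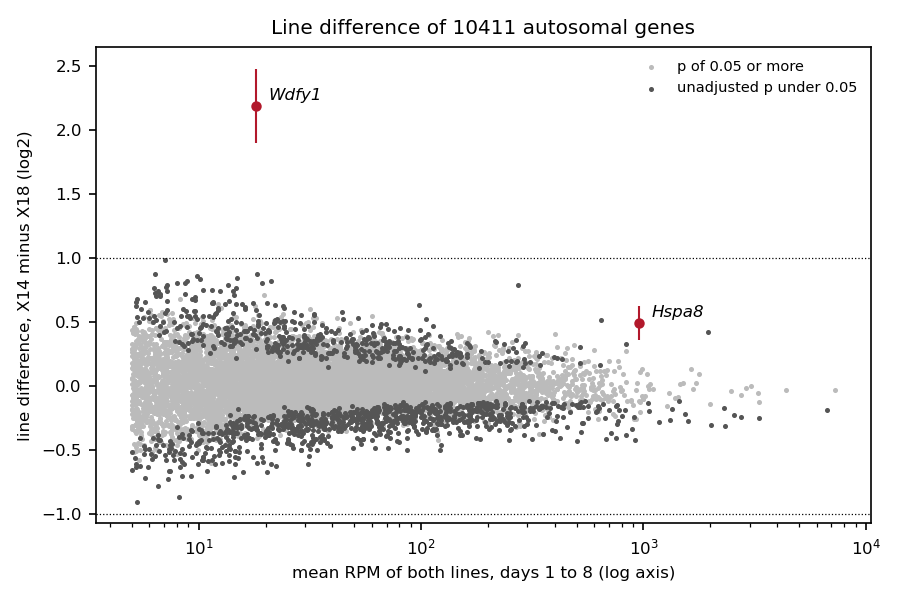
Log2 difference between lines (y axis) against the mean RPM (x axis, log scale) of the 10411 autosomal genes tested. Dark points have an unadjusted p under 0.05, dotted lines mark a 2-fold difference, and bars on the named genes are 95% intervals. Wdfy1 stands at 2.19 and Hspa8 at 0.49, and the remaining genes lie between the dotted lines.

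The size of the line difference was set beside other contrasts in the same libraries. Over the 5913 autosomal genes that averaged 30 RPM or more, the median absolute log2 difference of a pair of lines was 0.24 (0.13 to 0.58 over 16 pairs). Between labels of the same line and day it was 0.26 (0.21 to 0.59 over 16 comparisons), and between a culture and its next day 0.30 (0.17 to 0.76 over 28). Between day 1 and day 8 of one culture it was 0.59 (0.44 to 0.95 over 4). These ranges overlap and share libraries, and they were not tested against each other. In a fit with day, label and line as terms, limma called 338 autosomal genes between labels, 180 higher and 158 lower under double, against 1 gene between lines.

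The difference between lines followed gene length. For each pair the slope of the log2 difference on log2 exon length was taken across the autosomal genes. It ranged from -0.47 to 0.50 per doubling of length, was above 0 in 13 of 16 pairs and averaged 0.11 (SD 0.23, two-sided exact sign-flip permutation test, p = 0.0880). The 9 pairs in which X14 was sequenced deeper all had a slope above 0. Of the 7 pairs in which X18 was deeper, 3 had a slope below 0, with the lowest on day 5 under the label double, where X14 had 612740 reads and X18 1362382. Over the 16 pairs, which come from 4 cultures, slope and depth ratio had a Pearson r of 0.80 and a Spearman rho of 0.80, given as a description.

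Genes with a small p fell by length accordingly. In the shortest quartile, with exon lengths up to 2367 bases, 607 genes were lower in X14 at an unadjusted p under 0.05 and 48 higher. In the longest quartile, from 5706 bases, 17 were lower and 204 higher. When the length trend was removed from each library, these counts became 142 lower and 147 higher in the shortest quartile, and 108 lower and 119 higher in the longest. With the trend removed Wdfy1 differed by 2.09 (adjusted p = 4.7e-08) and Hspa8 by 0.47 (adjusted p = 0.0432, limma).

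The number of genes that passed changed with the libraries used. Without day 5, limma gave 1599 autosomal genes an adjusted p under 0.05, 775 higher and 824 lower in X14, and called 12. The higher genes had a median exon length of 6604 bases and the lower of 1534.5 bases, against 3764 bases over all. The 12 were Wdfy1, Bmpr2, Setd1b, Srcap, Cbl, Slco2a1, Ntn1, Fzd3, Lmbrd2 and Zfp871, higher in X14, and Pla2g10 and Blnk, lower, and apart from Wdfy1 their differences were 1.04 to 1.19 in size. With day 5 left out and the length trend removed, 132 genes had an adjusted p under 0.05 and 4 were called, among them Wdfy1 and Blnk, a B cell adaptor. Leaving out more or fewer libraries gave other counts at an adjusted p under 0.05. There were 17 without days 5 and 8, 206 without the pair of day 5 labelled double and 2 without the pair of day 5 labelled single. Without the X14 culture labelled double there were 242. That fit had day and label as terms in place of the pairs, so the model changed as well as the libraries. What share of these smaller differences belongs to the lines and what share to depth and length was not tested further.

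**Figure D3:**
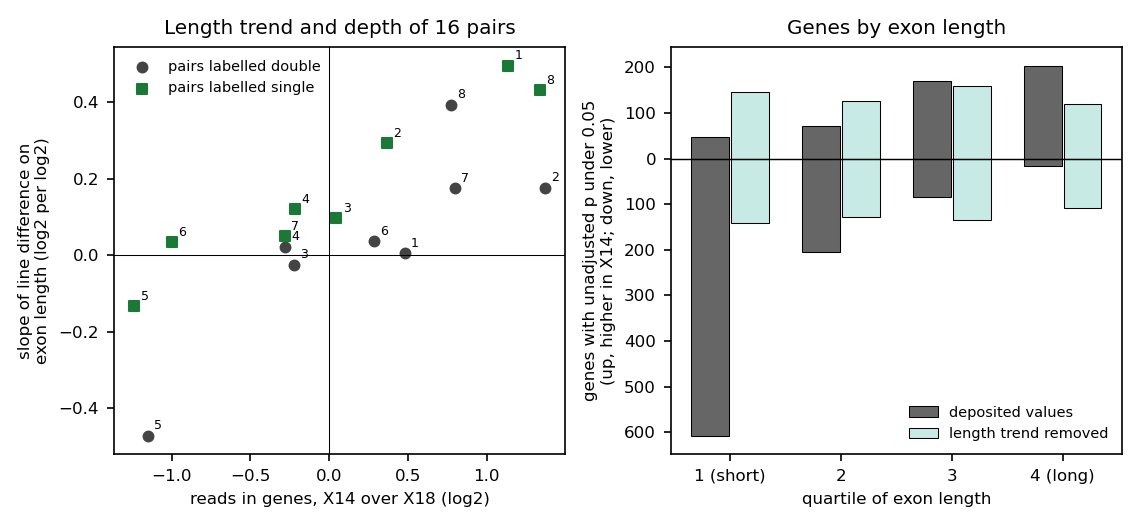
Left, the slope of the line difference on exon length (y axis, log2 per log2) against the ratio of reads in genes (x axis, log2) for each pair, with the day beside each point. Right, autosomal genes with an unadjusted p under 0.05 by quartile of exon length, drawn upward when higher in X14 and downward when lower. The 607 short genes that were lower in X14 became 142 once the length trend was removed.

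Gene lists for cell states, imprinting and stress held 428 distinct autosomal genes, of which 260 were tested. Wdfy1 was the only one called, in the list of genes known to differ between C57BL/6 substrains. Of the 260, 18.1% had an unadjusted p under 0.05 in either direction, against 13.5% of all autosomal genes. The medians of the 20 lists ranged from -0.14 to 0.18, beside a median of 0.00 over all autosomal genes.

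Tested genes of the substrain list other than Wdfy1 did not differ detectably in RNA level. The list does not separate members that differ in RNA level from those that differ in sequence, and substrain origin was not tested. Nnt, the mitochondrial transhydrogenase that is truncated in one C57BL/6 substrain, ranged from 8.31 to 45.3 RPM in X14 and from 6.70 to 40.3 RPM in X18. Its difference was 0.26 (SE 0.14, adjusted p = 0.388, limma), higher in X14 in 10 of 16 pairs. Cyfip2, a regulator of actin assembly, differed by -0.08 (SE 0.19), and Ide, the insulin-degrading enzyme, by 0.09 (SE 0.07). The other members, Crb1, Nlrp12, Fgfbp3 and Entpd4, fell under the filter, and Entpd4 had no read in any of the 32 libraries.

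Pluripotency genes included members in both directions, from -0.50 for Dppa3 to 0.88 for Nr5a2. None of 10 core and 19 naive genes was called. At an unadjusted p under 0.05, 2 core genes were lower and 0 higher, and 3 naive genes were lower and 2 higher, against 8.78% lower and 4.73% higher of all autosomal genes. The core genes were Pou5f1 (-0.24, SE 0.10) and the short Dppa5a (-0.41, SE 0.15). Once the length trend was removed they stood at -0.16 and -0.19. Sox2, the partner of Pou5f1, differed by 0.06 (SE 0.08) and Nanog by -0.07 (SE 0.07). In the naive list Nr5a2 and Prdm14, a repressor of differentiation, were higher at that level, and Dppa3, Fgf4 and Spp1 lower. With the length trend removed 2 naive genes were higher and 1, Dppa3, lower, against 5.31% and 4.92% of all autosomal genes. The naive markers Esrrb and Zfp42 differed by 0.24 (SE 0.14) and 0.14 (SE 0.12). All 17 tested genes of the formative and primed state had an unadjusted p above 0.05, among them Dnmt3b, a de novo DNA methyltransferase (0.16, SE 0.13), Otx2, a primed-state regulator (-0.08, SE 0.11), and Fgf5, a growth factor of primed cells (-0.13, SE 0.18). The 12 DNA methylation enzymes had a median of 0.16 and likewise none under 0.05, with Tet3 highest (0.43, SE 0.22).

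Among imprinted genes more members stood higher than lower in X14. Of 39 tested, 8 were higher at an unadjusted p under 0.05 and 1 lower, against 4.73% and 8.78% of all autosomal genes, and none was called. The higher ones included the fetal growth factor Igf2 (0.79, SE 0.22, adjusted p = 0.309), Zdbf2 (0.63, SE 0.18), the Polycomb-associated Sfmbt2 (0.53, SE 0.16), Peg3 (0.52, SE 0.18) and the retrotransposon-derived Peg10 (0.42, SE 0.17). The other 3 were Ppp1r9a (0.39, SE 0.15), Plagl1 (0.33, SE 0.15) and Impact (0.19, SE 0.06), and the lower one was Gnas (-0.16, SE 0.06). Exon lengths of the 5 named first run from 5723 bases for Igf2 to 13314 for Peg3, against a median of 3764 over all. After the length trend was removed, 6 imprinted genes were higher and 2, Gnas and Grb10, lower, against 5.31% and 4.92% of all autosomal genes, and the 5 stood between 0.31 for Peg3 and 0.71 for Igf2. Other imprinted genes were close between lines, such as H19, the maternal RNA beside Igf2 (-0.06, SE 0.10), Snrpn (-0.03, SE 0.07), Mest (-0.01, SE 0.07) and the maternally expressed Meg3 (0.21, SE 0.11).

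In the list of hypoxia and glycolysis, 6 of 24 genes were lower at an unadjusted p under 0.05 and 1 higher, against 8.78% and 4.73% of all autosomal genes, with a median of -0.09. They included Adm, a hypoxia-induced peptide (-0.56, SE 0.16), and the glycolytic enzymes Aldoa (-0.25, SE 0.08), Eno1 (-0.19, SE 0.07) and Gpi1 (-0.16, SE 0.06), while the glucose transporter Slc2a1 differed by -0.03 (SE 0.06). The higher one was Gapdh, at a mean of 10.1 RPM in X14 and 7.70 RPM in X18 (0.46, SE 0.16), a gene with many near-identical pseudogenes whose count is uncertain. With the length trend removed 6 were lower, namely Adm (-0.41), Aldoa, Eno1, Gpi1, Ndrg1 and Slc2a3, against 4.92% of all. In the list of metallothionein and oxidative stress 5 of 14 were lower, against the same 8.78%, among them Mt1 (-0.31, SE 0.10), Gstp1 (-0.41, SE 0.11) and Gsta4 (-0.30, SE 0.10). The exon lengths of these 3 run from 540 to 957 bases. Without the length trend 4 were lower, namely Gstt1, Gstp1, Gsta4 and Gclm, Mt1 stood at -0.08, and the median of the list moved from -0.14 to 0.01. The p53 target genes had a median of -0.02 over 19 members, with Cdkn1a, the cell cycle inhibitor, at -0.01 (SE 0.06) and Mdm2, the p53 ligase, at -0.02 (SE 0.07). At an unadjusted p under 0.05 the apoptosis gene Bax was lower (-0.22, SE 0.09) and Trp53inp1 higher (0.23, SE 0.10). The interferon list had a median of -0.02 over 12 members, of which Ifitm2 (-0.20, SE 0.07) and Ifitm3 (-0.16, SE 0.07) were lower at that level. The MHC class I list had a median of -0.13 over 12, of which the immunoproteasome subunit Psmb8 was lower (-0.37, SE 0.16). With the length trend removed, no gene of the p53, interferon or MHC class I list had an unadjusted p under 0.05.

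In the remaining lists the counts stand against 8.78% of all autosomal genes lower and 4.73% higher. Of 10 tested genes of fibroblasts and contractile cells, 3 were lower at an unadjusted p under 0.05, namely Cnn1 (-0.52, SE 0.18), Tagln (-0.46, SE 0.20) and Myl9 (-0.38, SE 0.17). The collagens Col1a1, Col1a2 and Col5a1 of the same list had differences of 0.25 (SE 0.27), 0.41 (SE 0.26) and 0.37 (SE 0.19), and Fn1, fibronectin, of 0.22 (SE 0.21). With the length trend removed Cnn1 alone of the list remained at that level. Of 22 germline genes that promoter methylation silences, the meiotic gene Sycp3 (-0.55, SE 0.20) and Mael, which acts against transposons (-0.35, SE 0.16), were lower and Nlrp4c higher (0.50, SE 0.16). Of 15 immediate early and stress genes, Gadd45b, Ier3 and Asns were lower, at -0.35, -0.29 and -0.12. Ncam1, a neural adhesion molecule, was higher among 6 neural genes (0.74, SE 0.25). None of these was called, and none of 3 tested genes of the 2-cell-like state had an unadjusted p under 0.05. With the length trend removed, 2 germline genes were higher at that level and 1 lower. The immediate early and stress list then had 1 higher and 1 lower, and the neural list 2 higher and 0 lower. Of all autosomal genes 5.31% were then higher and 4.92% lower.

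**Figure D4:**
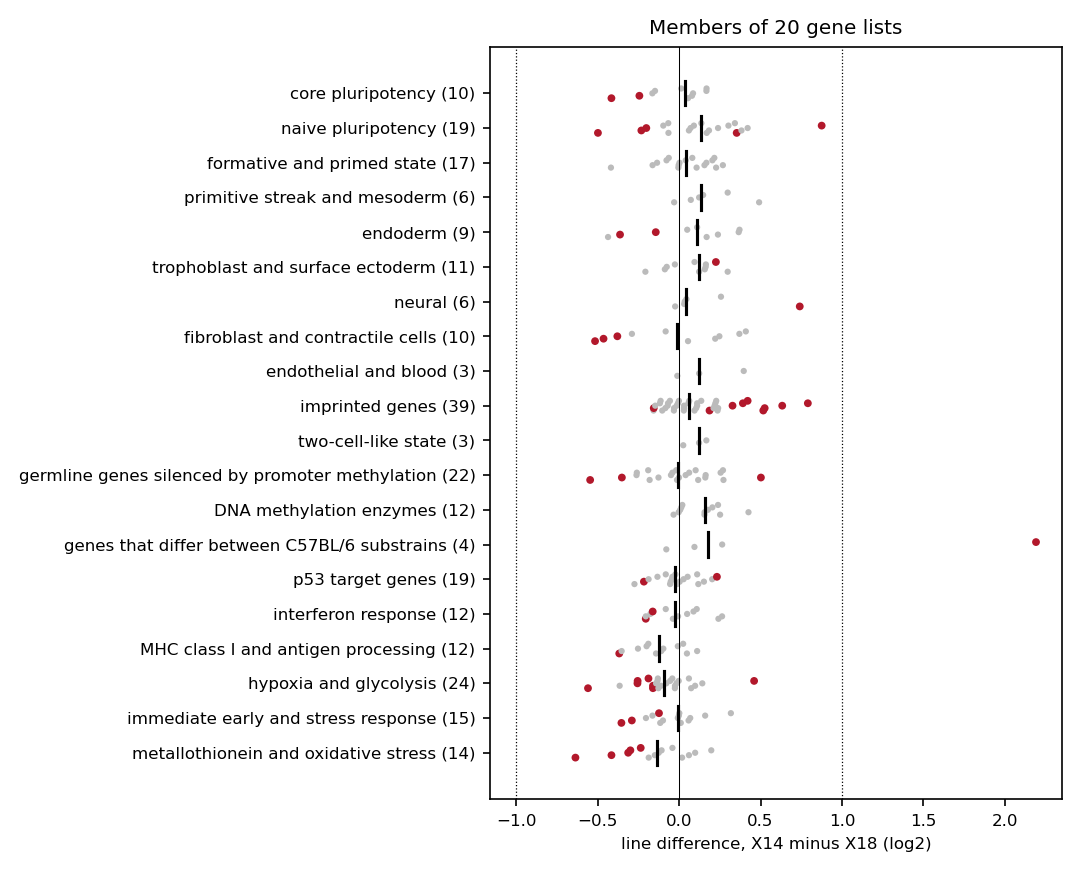
Log2 difference between lines (x axis) of the tested members of 20 gene lists (rows, with the number tested). Red points have an unadjusted p under 0.05, black bars are list medians and dotted lines mark a 2-fold difference. Wdfy1, at 2.19 in the list of substrain genes, is the only point past them.

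Whether the line difference changed along differentiation was tested by its slope over days. No autosomal gene was called by limma, and 458 had an unadjusted p under 0.05 (4.4%). T, the primitive streak regulator, and Igf2 are described as examples chosen after their values were seen. From day 1 to day 5 T stayed under 1 RPM in every library. In X14 on days 6, 7 and 8 its values were 9.61, 46.0 and 34.3 RPM under double, and 43.2, 137 and 183 RPM under single. In X18 they were 9.68, 11.1 and 15.7 RPM under double and 27.9, 19.4 and 69.0 RPM under single. X14 was higher in 5 of these 6 pairs. The change of the line difference from day 1 to day 8 was 2.65 (unadjusted p = 9.4e-05, adjusted p = 0.511, limma). Every library of days 1 to 5 had 0 or 1 read of T. A deposited value without reads follows the depth of its library, so the early line differences of T largely follow depth. They averaged -0.31 on days 1 to 4, against 1.29 on days 5 to 8. The change and its p therefore rest in part on values without reads, and how far was not tested.

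Igf2 had its main rise on the same days. On days 6, 7 and 8 it stood at 297, 1283 and 2648 RPM in X14 under double and at 64.2, 417 and 1432 RPM under single, against 133, 524 and 1036 RPM and 39.7, 186 and 542 RPM in X18. X14 was higher in all 6 of these pairs. The change of its line difference from day 1 to day 8 was 0.14 (unadjusted p = 0.845). The line difference of Igf2 was 0.85 on days 1 to 4 and 0.73 on days 5 to 8. On days 1 and 2 it had 0 or 1 read per library in X18 and 2 to 11 in X14. The early difference, and part of the 0.79 over all days, therefore rests on few reads. With voom on the recovered reads, which gives weight to deeper values, limma called Igf2 (1.08, adjusted p = 7.0e-05) and T (1.32, adjusted p = 0.0114) as well as Wdfy1. Of 6 tested genes of the primitive streak and mesoderm list none had an unadjusted p under 0.05. Of 9 endoderm genes 2 were lower at that level, against 8.78% of all autosomal genes. With the length trend removed 3 endoderm genes were lower, against 4.92% of all. In that fit 1 gene of the primitive streak and mesoderm list was higher, against 5.31% of all. Eomes and Hand1, regulators of mesoderm and trophoblast, differed by 0.30 (SE 0.25) and 0.12 (SE 0.23), and Krt18, an early epithelial keratin, by -0.08 (SE 0.17).

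Whether the line difference depended on the label was tested in the same way. No autosomal gene was called by limma, and 1003 had an unadjusted p under 0.05 (9.63%). Dnmt3b differed by -0.14 in pairs labelled double and by 0.45 in pairs labelled single (difference -0.59, unadjusted p = 0.0151, adjusted p = 0.486). Cyfip2 differed by -0.54 and 0.39 (difference -0.93, unadjusted p = 0.0113, adjusted p = 0.486). X-linked genes were not counted, but Xist, which coats the inactive X, is given as a check. It ranged from 0.52 to 127 RPM in X14 and from 1.08 to 152 RPM in X18, with a log2 difference of 0.63 (SE 0.28, adjusted p = 0.349). The mean of Xist was 63.1 RPM under double and 20.8 RPM under single in X14, and 46.7 and 7.37 RPM in X18. The change of its line difference from day 1 to day 8 was 1.82 (unadjusted p = 0.0292, adjusted p = 0.9999, limma).

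Whole chromosomes were compared by the median line difference of their genes, from which the median of all autosomal genes was taken. None of 19 autosomes was called, which required a mean of at least 0.15 and an adjusted p under 0.05 in a two-sided exact sign-flip permutation test over 16 pairs. The means ran from -0.03 on chromosome 17 to 0.06 on chromosome 3, and 4 autosomes had an unadjusted p under 0.05. Chromosome 3 was highest (mean 0.06, SD 0.07, n = 16 pairs, exact p = 0.00601, adjusted p = 0.114). It lay above 0 in all 8 pairs labelled double (mean 0.11, from 0.06 to 0.18) and in 2 of 8 labelled single (mean 0.00, from -0.04 to 0.07). Chromosome 15 lay below 0 in all 8 pairs labelled double (mean -0.04) and above 0 in 4 of 8 labelled single.

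Among 9955 windows of 25 neighbouring genes, 40 had a mean beyond 0.15 and none had one sign in all 16 pairs. The 2 highest lay on chromosome 4, from 141467890 to 146126621 (0.22, SD 0.17), and on chromosome 9, from 36889965 to 44333600 (0.22, SD 0.16), above 0 in 14 and 13 of 16 pairs. The latter holds Hspa8. The 2 tested neighbours of Hspa8 within 1000000 bases were the sterol transporter Gramd1b (0.65, SE 0.27, adjusted p = 0.342) and 9030425E11Rik (0.45, SE 0.18, adjusted p = 0.335). Both were higher in X14 at an unadjusted p under 0.05 in limma, in 12 and 13 of 16 pairs, and neither was called. The lowest window lay on chromosome 7, from 45053613 to 45621059 (-0.17, SD 0.27), and stood at -0.09 once the length trend was removed, against 0.16 and 0.19 for the highest.

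**Figure D5:**
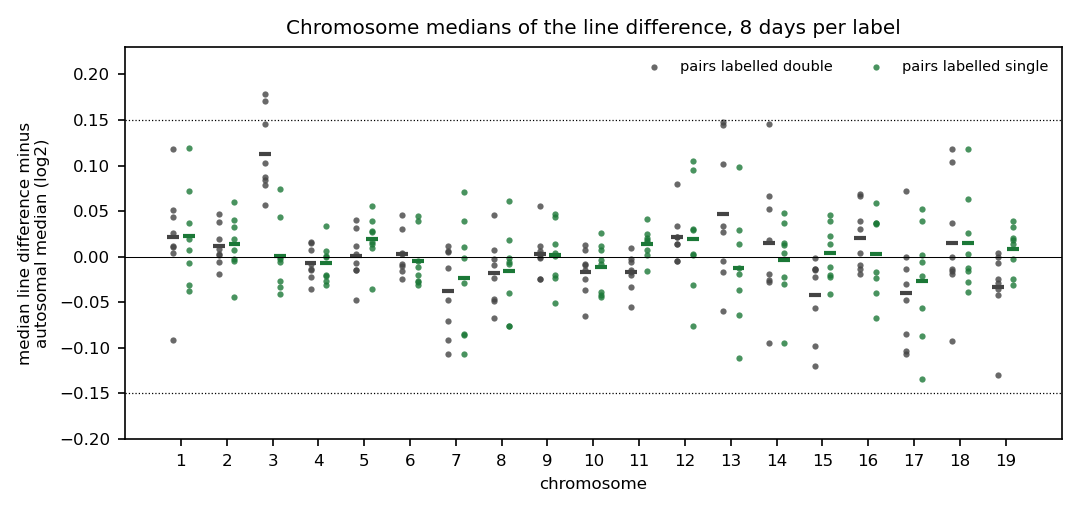
Median line difference of each autosome minus the autosomal median (y axis, log2) for each pair, by label. Points are the 8 days and bars their means, and dotted lines mark 0.15. The means of all chromosomes lie within the dotted lines, and the highest is chromosome 3 under the label double at 0.11.

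The day 0 libraries entered no call. In them Wdfy1 had 32.9 RPM under double and 30.6 RPM under single in X14, and 2.06 and 5.98 RPM in X18, so that both X14 values lay above both X18 values whatever their label. Of all 10411 autosomal genes 49.4% were higher in X14 in both pairs of day 0, so a direction in both pairs is no result about one gene. The log2 differences of Wdfy1 were 4.00 and 2.35. Hspa8 was lower in X14 under double on day 0 (-0.18) and higher under single (0.73). These differences rest on the labels of day 0. Hprt had 60.6 RPM under double and 139 RPM under single in X14, against 81.2 and 61.5 RPM in X18. Its later means were higher under double in both lines. In X14 Meg3 and Nnt also stood in the reverse of their later order, while Lif did not. With the X14 labels exchanged, Hspa8 would be higher in X14 in both pairs (1644 against 1230 RPM and 1086 against 993 RPM). Whether the labels were exchanged was not tested.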

How the data were processed

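RNA-seq libraries of 2 Xmas mESC lines were examined, 32 of 36 in the main comparison. According to the study's methods, libraries were made with a TruSeq RNA kit and quantified in SeqMonk. The submitters' processing notes name bcl2fastq, TopHat2 2.0.12 and mm10. Which gene annotation version was used is not given in the sources used here. The deposited values are log2 RPKM, in which the authors wrote a gene without reads as 0.9 read. Whole reads, exon lengths and library divisors were recovered from them for 100% of values (tolerance 0.001 on the log2 scale), and RPM are these reads over the divisor. All 36 value columns were mapped and 0 were left over.

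The deposited log2 values of the 10817 genes that averaged 5 RPM or more were fitted in limma 3.58.1 (lmFit, eBayes with trend, R 4.3.3) with the 16 pairs and line as terms. Tests were two-sided and p-values adjusted by Benjamini-Hochberg over all genes tested. A call needed an adjusted p under 0.05 and a log2 difference of at least 1. The line's interaction with day or label was fitted likewise. A floor of 3 reads was used for genes without reads, for counting error only. Gene lists were matched by symbol or synonym, and 8 of their names had no match. Named genes are those called with one sign in all 16 pairs and at least 10 RPM in the higher line, and others are said to be chosen after their values were seen or are members of the lists. The comparison, its lists and tests were chosen with earlier results of these data known. The fit was tested on simulated data. The alternatives tried were other scalings, filters and pseudocounts, voom, thinning, removal of length and level trends, and leaving out days, labels and cultures.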

Additional observations from a re-analysis of the deposited data

Results flagged for a closer look

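Gm9008 lay below the filter on low values (mean 1.96 RPM over the 32 libraries) and was looked at because it passed only when that filter was lowered. It passed the lower filters only through its X18 reads, so its call there is no test of the line difference. It is a retrogene on chromosome 6, from 76496357 to 76497631 on the minus strand, so reads could be shared with a near-identical copy elsewhere and its count is uncertain. It had no read in any of the 18 X14 libraries, day 0 included. In X18 it had 99 reads over days 1 to 8 (95% Poisson interval 80.5 to 121, counting error only), in 14 of 16 libraries with at most 18 reads each, 43 under double and 56 under single. Its pooled level was 4.23 RPM in X18. A floor of 3 reads over the X14 libraries is 0.117 RPM, and the X18 level is 36.1-fold that floor. This ratio leaves out the counting error of the X18 reads, so it is not a lower bound. The X18 libraries of day 0 had 0 reads.

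Wdfy1 stood at 32.9 RPM on day 0 in the X14 library labelled double, in data that the comparison did not use. The X18 library beside it had 2.06 RPM.

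On chromosome 3 the median line difference was higher by 0.11 (SD 0.04, n = 8 days) in pairs labelled double than in pairs labelled single. It was higher on 8 of 8 days, in a two-sided exact sign-flip permutation test with p = 0.00781, the smallest that 8 days allow, and an adjusted p of 0.0742 over 19 autosomes. This test was chosen after seeing the data. Chromosome 11 reached the same p with a difference of -0.03.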

How the results depend on the processing

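Wdfy1 kept its direction and an adjusted p under 0.05 in all 37 alternatives, with log2 differences of 1.75 (log2 of RPM + 3) to 2.30. Hspa8 kept its direction (0.38 to 0.61) and in 29 of the 37 its side of the threshold. It lost it with libraries scaled to equal medians (adjusted p = 0.130), within either label, on days 5 to 8 alone, without replicate 2, 3 or 4, and without replicate 1 once the length trend was also removed.

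Against 1 autosomal gene called, voom called 3. Both lower filters called 2, adding Gm9008. That gene passed them only through its X18 reads, so its call is no test of the line difference. Dropping the minimum fold change also called 2, adding Hspa8, and gave 2 genes different in all 16 pairs. Leaving out day 5 called 12, days 5 and 8 together 2, the pair of day 5 labelled double 2, and day 5 with the length trend removed 4. Leaving out one culture, in fits with day and label as terms in place of the pairs, called 1 to 10 genes. The 10 came without replicate 1 (X14 double), where 242 genes had an adjusted p under 0.05, and only 2 were called there once the length trend was removed. Settings with days 5 and 8, part of day 5, or both choices together were added after seeing the data, and the cause of these changes was not tested. The other 27 alternatives called 1 gene each.

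No gene was called by day, by label or for a chromosome in any alternative (9, 6 and 5 tried). With culture as a random replicate block (consensus correlation -0.00736), 1 gene was called between lines and 0 by day, as without the block. At so small a correlation the block hardly alters the fit, so it cannot show how cultures differ for a single gene. No paired analysis by replicate number was possible because the lines share no number, so pairs were formed by day and label. Depth limits genes under 5 RPM, since 3 reads are worth up to 3.90 RPM in the shallowest library.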

Other observations

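Markers of endoderm and other cell types that lay under the filter were sparse in both lines. Gata6, a primitive endoderm regulator, had 23 reads in 6 of 16 X14 libraries and 1 read in 1 of 16 X18 libraries, with its highest X14 value on day 7 under single (6.19 RPM). Cdh5, the vascular cadherin, had 16 reads in X14 and 2 in X18, and the fibroblast gene Postn 29 and 8. The part of such cells in the values of T and Igf2 was not tested.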
